A study of Homo sapiens with 11 samples.

Results

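The genes described here are 10 genes of hematopoietic stem and progenitor cells, namely CD34, PROM1, MME, KIT, FLT3, MEF2C, ERG, BAALC, SPINK2 and LGALS1. They were taken by their symbols from 19775 genes on the array, and each was read from the probe set with the highest mean among those that carry its symbol alone. All 10 had such a probe set. Gene expression was measured in 11 established cell lines of T-cell acute lymphoblastic leukemia (T-ALL), with 1 HG U133 Plus 2.0 array for each. The line was therefore the replicate, and a single line had no error of its own. The 6 NKL-positive lines, labelled positive for homeobox genes of the NKL subclass, were LOUCY, PEER, JURKAT, HPB-ALL, CCRF-CEM and ALL-SIL. The 5 NKL-negative lines were SUP-T1, MOLT-16, CML-T1, MOLT-14 and MOLT-4. The labels name no treatment, and all the lines are cultured leukemia cells, which limits them as models of normal progenitors. The groups were compared over 10 lines, 5 of each kind. JURKAT was left out of this comparison, as it was by the authors.

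Hematopoietic stem cells divide and differentiate under the control of cytokine receptors and transcription factors. Among the genes examined here, KIT and FLT3 encode receptor tyrosine kinases for stem cell factor and for the FLT3 ligand, while MEF2C and ERG encode transcription factors of early progenitors. CD34, PROM1 and MME encode surface proteins by which progenitors are recognised, and most of these genes are shut down as thymocytes commit to the T-cell lineage. Immature forms of T-ALL are known to keep part of this program.

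Promoters of ERG, MEF2C, SPINK2 and KIT, which were each high in some of the lines, are shown for their sequence context. LGALS1, the gene with the widest spread, had no window and is not shown. The RefSeq table of build GRCh38.p14 held 24 windows, from 250 bases before to 50 bases after a gene start, for 8 of the 10 genes. ERG, MEF2C and SPINK2 have start sites of unlike composition. For ERG 2 windows are given, followed by 1 window each of MEF2C, SPINK2 and KIT. Capitals mark the letters of a searched motif, and all other bases are in lower case. The sequences run 5′ to 3′ on the strand of the gene.
ERG window 1, minus strand, chr21:38660618-38660917: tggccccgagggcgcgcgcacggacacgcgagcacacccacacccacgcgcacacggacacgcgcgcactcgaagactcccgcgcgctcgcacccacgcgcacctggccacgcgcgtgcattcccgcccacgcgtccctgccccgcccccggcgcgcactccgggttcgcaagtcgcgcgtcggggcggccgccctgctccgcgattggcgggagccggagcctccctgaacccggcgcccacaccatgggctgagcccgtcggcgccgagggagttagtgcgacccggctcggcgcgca
ERG window 3, minus strand, chr21:38498455-38498754: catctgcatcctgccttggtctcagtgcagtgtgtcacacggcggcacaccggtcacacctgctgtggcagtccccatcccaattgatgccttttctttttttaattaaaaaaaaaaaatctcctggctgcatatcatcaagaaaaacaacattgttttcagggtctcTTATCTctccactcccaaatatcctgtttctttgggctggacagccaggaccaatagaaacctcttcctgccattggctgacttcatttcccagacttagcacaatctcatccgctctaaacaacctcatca
MEF2C window 1, minus strand, chr5:88883135-88883434: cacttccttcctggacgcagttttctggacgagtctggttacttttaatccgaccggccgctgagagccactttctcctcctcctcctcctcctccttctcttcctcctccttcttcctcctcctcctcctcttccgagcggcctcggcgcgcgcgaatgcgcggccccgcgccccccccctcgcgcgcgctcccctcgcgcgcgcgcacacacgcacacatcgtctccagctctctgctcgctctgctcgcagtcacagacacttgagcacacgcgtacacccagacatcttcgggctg
SPINK2 window 2, minus strand, chr4:56821652-56821951: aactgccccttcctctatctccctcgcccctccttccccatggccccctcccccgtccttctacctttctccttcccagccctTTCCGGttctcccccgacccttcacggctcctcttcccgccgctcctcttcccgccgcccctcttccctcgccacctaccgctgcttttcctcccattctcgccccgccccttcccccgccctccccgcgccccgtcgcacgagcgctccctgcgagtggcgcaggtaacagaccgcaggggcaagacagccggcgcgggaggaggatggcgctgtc
KIT window 1, plus strand, chr4:54657707-54658006: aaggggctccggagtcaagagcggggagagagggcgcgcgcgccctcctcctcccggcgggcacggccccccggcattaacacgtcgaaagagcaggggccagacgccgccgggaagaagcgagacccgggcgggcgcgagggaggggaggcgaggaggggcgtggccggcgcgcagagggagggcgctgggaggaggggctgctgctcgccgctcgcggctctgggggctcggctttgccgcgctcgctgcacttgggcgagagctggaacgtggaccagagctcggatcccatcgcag
The first ERG window had a CpG observed over expected ratio of 1.22 and 77.0% G and C, while the ratio was 0.284 in ERG window 3. The ratio was 1.19 in MEF2C window 1, 0.925 in SPINK2 window 2 and 0.952 in KIT window 1. Over 35116 windows of all genes the median was 0.579 and the upper quartile 0.856. The windows shown for MEF2C and SPINK2 had the highest ratio of their gene. The remaining MEF2C windows had ratios of 0.132 to 0.476 and SPINK2 window 1 had 0.423, all below that median. On either strand, the ETS letters CCGGAA occurred in SPINK2 window 2 and the GATA letters AGATAA in ERG window 3, with no overlap between searched motifs. In all windows, CCGGAA occurred in 17.25% and AGATAA in 10.33%. The RUNX letters TGTGGT (13.07% of all windows), the E-box letters CAGCTG (17.95%) and the TATA letters TATAAA (11.53%) were not found in the 5 windows shown. CAGCTG did occur in MEF2C windows 2 and 4, which are not shown.

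Values are log2 values after robust multi-array averaging (RMA), so that a difference of 1 is a doubling of signal. The array medians lay between 4.63 and 4.78, the lower quartiles between 3.45 and 3.60 and the upper quartiles between 6.69 and 7.18. Most genes of the T-cell lineage were high, with 10 to 12 of 12 markers above the upper quartile in every line. Their mean ran from 9.23 to 10.36 in NKL-positive lines and from 9.11 to 10.10 in NKL-negative lines. CD3D read at least 12.64 in every line. By contrast, CD2 ran from 4.13 in CML-T1 to 10.89 in JURKAT. It lay below the array median in CML-T1, PEER, SUP-T1 and LOUCY. The lowest PTCRA value was 5.25 in MOLT-16, below the upper quartile. Of 8 myeloid markers 0 exceeded the upper quartile in any line, and MPO, ELANE, CD14, AZU1 and PRTN3 stayed at or below the array median in all 11. The remaining markers, ITGAM, LYZ and CSF1R, each exceeded the array median in some lines. ITGAM was highest in CML-T1 (7.08) and LOUCY (6.76), LYZ in LOUCY (5.48) and CML-T1 (5.21), and CSF1R in ALL-SIL (5.38). Of 6 B-cell markers 0 to 4 were above the upper quartile in NKL-positive lines and 0 to 2 in NKL-negative lines, and their mean ran from 4.58 to 7.54 in NKL-positive lines, with the highest value in LOUCY, and from 4.30 to 6.46 in NKL-negative lines, with the highest value in CML-T1. The poly-A controls added during labelling were near background in MOLT-16, HPB-ALL and CML-T1 (means of 3.01 to 3.14) and present in the other 8 lines (5.96 to 9.48). The 3′ minus 5′ signal of ACTB averaged 0.51 ± 0.28 in the NKL-positive group and 0.88 ± 0.28 in the NKL-negative group (SD, n = 5 each, exact permutation test, two-sided, p = 0.0873), and ribosomal RNA probe sets averaged 7.98 ± 1.90 in the NKL-positive group and 10.23 ± 1.40 in the NKL-negative group (exact permutation test, two-sided, p = 0.0794). With JURKAT included both differences passed 0.05 (exact permutation p = 0.0498 for ACTB and p = 0.0433 for ribosomal RNA). The part of these array properties in the differences below was not tested except where a value with other lines is given.

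The label of the gene group fitted these lines only in part. PROM1 was below the lower quartile in all 11 lines, FLT3 exceeded the array median only in HPB-ALL, and CD34 exceeded the upper quartile only in MOLT-4. By contrast, 7 of the 10 genes (KIT, MEF2C, BAALC, ERG, SPINK2, LGALS1 and MME) spanned at least 3 log2 units between lines, where 16.3% of all genes did so. Between the groups, 6 of the 10 genes had a higher mean in NKL-positive lines, as did 49.8% of all genes. The other 4 had a lower mean there. In the limma test 0 of 10 passed at an adjusted p of 0.05, and 0 of 10 had groups that did not overlap. Over all probe sets 0.00916% passed this test, which is 5 of 54613, and 0.905% of genes had groups that did not overlap. At an unadjusted p under 0.05 there were 2 of the 10 genes, LGALS1 and MME, against 5.26% of all genes. The median difference of the 10 genes was 0.29, against −0.002 over all genes.

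**Figure D1:**
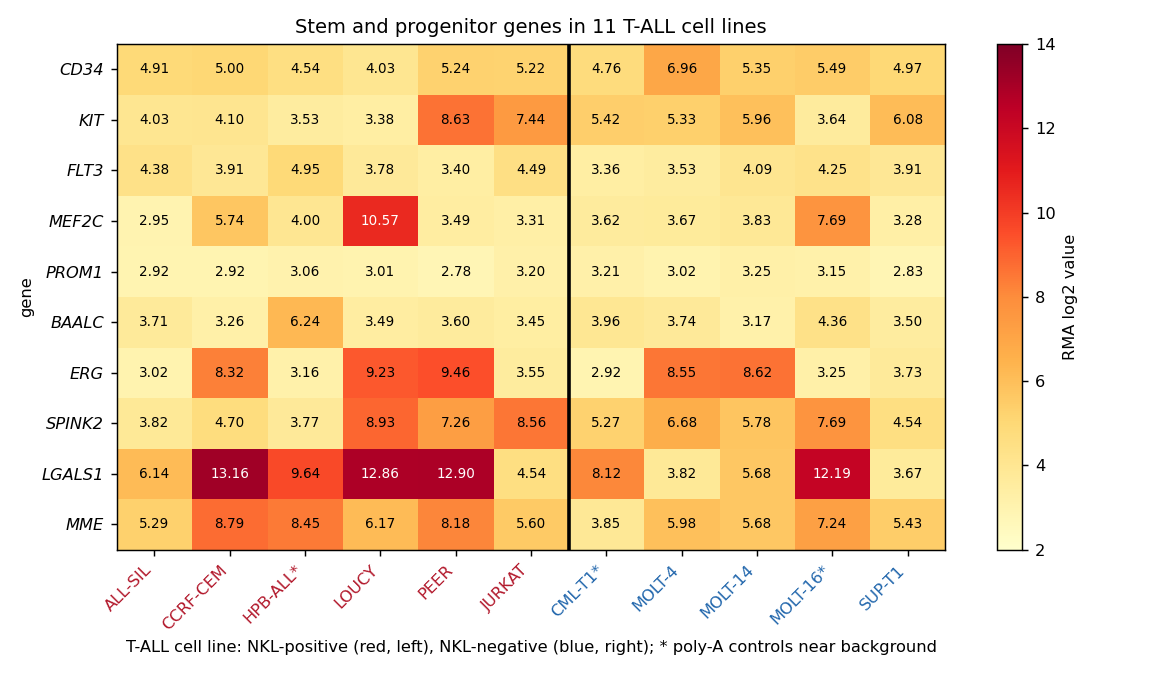
RMA log2 values of the 10 genes (rows) in the 11 lines (columns), NKL-positive lines in red at the left and NKL-negative lines in blue at the right; asterisks mark lines with poly-A controls near background. PROM1 stays between 2.78 and 3.25, while LGALS1 runs from 3.67 to 13.16.

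Among the surface proteins, CD34 encodes a sialomucin of stem and progenitor cells and was close to the array median in most lines. It read 4.91 in ALL-SIL, 5.0 in CCRF-CEM, 4.54 in HPB-ALL, 4.03 in LOUCY, 5.24 in PEER and 5.22 in JURKAT, against 4.76 in CML-T1, 6.96 in MOLT-4, 5.35 in MOLT-14, 5.49 in MOLT-16 and 4.97 in SUP-T1. MOLT-4 was thus the highest line and LOUCY the lowest, and the groups overlapped. The means were 4.74 ± 0.47 in the NKL-positive group and 5.51 ± 0.86 in the NKL-negative group (SD, n = 5 each), a difference of −0.76 with an SE of 0.41 and a 95% interval from −1.66 to 0.14 (limma, adjusted p = 0.981). Without MOLT-4 the difference was −0.40. The array of MOLT-4 also had the largest 3′ minus 5′ signal of ACTB, 1.17, and the lowest upper quartile, 6.69, whose part in its CD34 value was not tested.

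PROM1, which encodes a cholesterol-binding pentaspan membrane protein, ran from 2.78 to 3.20 in NKL-positive lines including JURKAT and from 2.83 to 3.25 in NKL-negative lines. Its spread over the lines, 0.47 log2 units, was among the smallest on the array, at percentile 1.5 of the SDs of all genes, and no line stood above the low end of its array. The difference was −0.15 with a 95% interval from −0.50 to 0.19 (limma, adjusted p = 0.981).

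MME encodes the membrane metalloendopeptidase known as the common acute lymphoblastic leukemia antigen, which lymphoid progenitors carry. It read 5.29 in ALL-SIL, 8.79 in CCRF-CEM, 8.45 in HPB-ALL, 6.17 in LOUCY, 8.18 in PEER and 5.60 in JURKAT, against 3.85 in CML-T1, 5.98 in MOLT-4, 5.68 in MOLT-14, 7.24 in MOLT-16 and 5.43 in SUP-T1. CCRF-CEM, HPB-ALL and PEER exceeded all NKL-negative lines, whereas ALL-SIL and JURKAT lay below MOLT-4, MOLT-14 and MOLT-16. The means were 7.38 ± 1.55 in the NKL-positive group and 5.64 ± 1.22 in the NKL-negative group (SD, n = 5 each), a difference of 1.74 with an SE of 0.78 and a 95% interval from 0.02 to 3.46, which corresponds to 3.34-fold (limma, adjusted p = 0.981). A second probe set separated the lines more widely, with 8.97 in CCRF-CEM, 8.91 in HPB-ALL, 7.74 in PEER, 4.73 in LOUCY, 2.92 in ALL-SIL and 3.20 in JURKAT, against 6.15 in MOLT-16 and values of 2.92 to 3.44 in the remaining 4 NKL-negative lines. Its difference was 2.88 (SE 1.18, limma, adjusted p = 0.981). The same lines led by both probe sets, and leaving out 1 line at a time moved the difference of the first between 1.29 without CML-T1 and 2.26 without ALL-SIL. With the 7 lines that had poly-A controls it was 1.41.

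**Figure D2:**
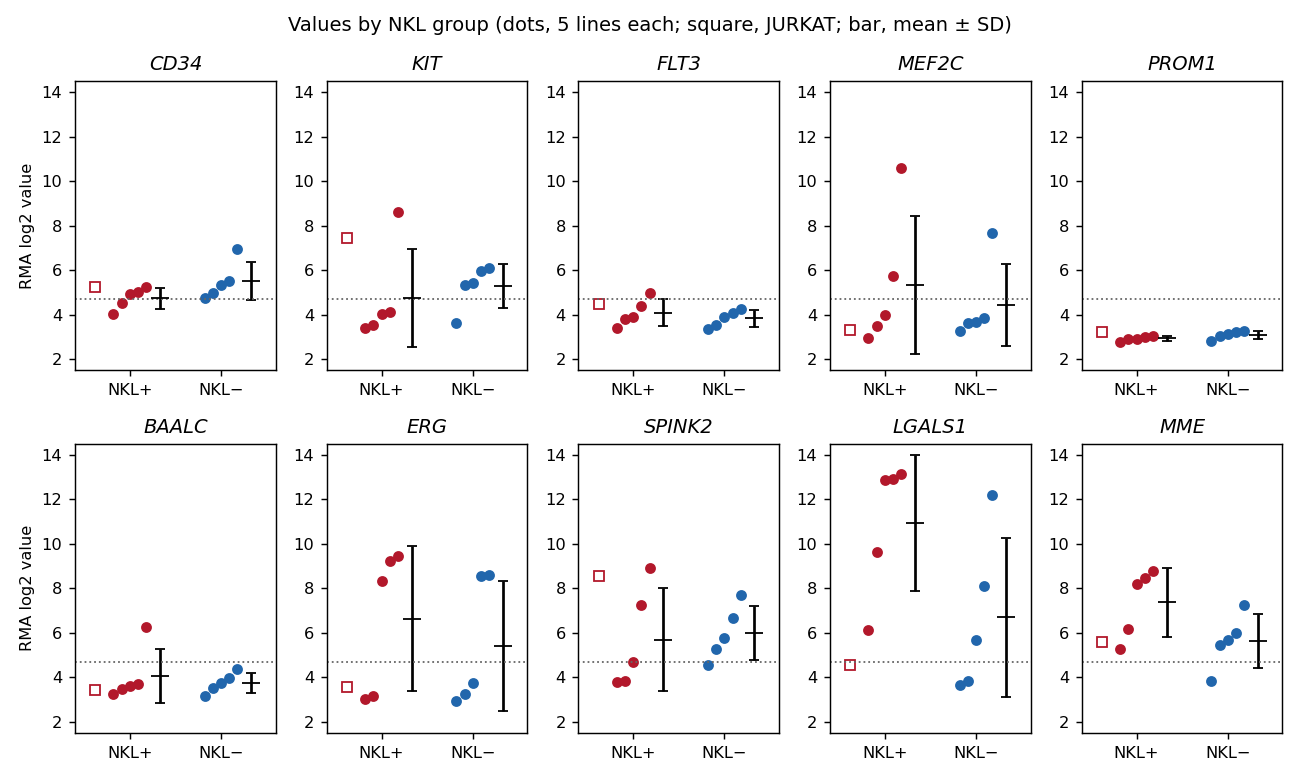
RMA log2 value (vertical axis) of each gene in 5 NKL-positive lines (red dots) and 5 NKL-negative lines (blue dots), with the mean ± SD at their right, JURKAT as an open square and the median of the array medians as a dotted line. The groups overlap for all 10 genes, and LGALS1 and MME have the largest differences, 4.24 and 1.74.

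The receptor kinase genes KIT and FLT3 differed in their patterns. KIT, the receptor for stem cell factor, read 4.03 in ALL-SIL, 4.10 in CCRF-CEM, 3.53 in HPB-ALL, 3.38 in LOUCY, 8.63 in PEER and 7.44 in JURKAT, against 5.42 in CML-T1, 5.33 in MOLT-4, 5.96 in MOLT-14, 3.64 in MOLT-16 and 6.08 in SUP-T1. PEER and JURKAT were the highest lines, the other 4 NKL-positive lines lay below the array median, and 4 of 5 NKL-negative lines lay between them. The mean was 4.73 ± 2.2 in the NKL-positive group and 5.29 ± 0.98 in the NKL-negative group (SD, n = 5 each), a difference of −0.55 (SE 0.95, 95% interval from −2.65 to 1.54, limma, adjusted p = 0.985), which was −1.53 without PEER and −0.21 without LOUCY. KITLG, the gene of its ligand, stayed between 2.77 and 3.66 in all lines.

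FLT3 read between 3.40 in PEER and 4.95 in HPB-ALL among NKL-positive lines, with 4.49 in JURKAT, and between 3.36 in CML-T1 and 4.25 in MOLT-16 among NKL-negative lines. Only the value of HPB-ALL exceeded the median of its array, 4.63. The difference was 0.26 (SE 0.31, 95% interval from −0.42 to 0.93, limma, adjusted p = 0.982), and 0.04 without HPB-ALL. The ligand gene FLT3LG was highest in CML-T1 at 8.42 and lay between 4.64 and 6.01 in the other 10 lines.

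MEF2C, a MADS-box factor of lymphoid and myeloid progenitors, was confined to few of these lines. It read 2.95 in ALL-SIL, 5.74 in CCRF-CEM, 4.0 in HPB-ALL, 10.57 in LOUCY, 3.49 in PEER and 3.31 in JURKAT, against 3.62 in CML-T1, 3.67 in MOLT-4, 3.83 in MOLT-14, 7.69 in MOLT-16 and 3.28 in SUP-T1. LOUCY was the highest line and MOLT-16 the next, so that 1 high line stood in each group, and CCRF-CEM was the only other line above its array median. All 3 probe sets were high in LOUCY (10.57, 9.70 and 8.27), while in MOLT-16 they read 7.69, 6.79 and 4.87 and in CCRF-CEM 5.74, 5.35 and 4.17. The means were 5.35 ± 3.10 in the NKL-positive group and 4.42 ± 1.84 in the NKL-negative group (SD, n = 5 each), a difference of 0.93 (SE 1.41, 95% interval from −2.19 to 4.05, limma, adjusted p = 0.983). Its sign rested on LOUCY, with a value of −0.37 without that line and 1.75 without MOLT-16. It was 2.09 in the 7 lines that had poly-A controls. LOUCY was also the line with the highest mean of the 6 B-cell markers. There VPREB1 read 10.95, CD79A 9.25, CD79B 8.25, EBF1 7.63, PAX5 5.77 and MS4A1 3.38. In CML-T1, where MEF2C read 3.62, CD79A read 10.12, EBF1 7.63, CD79B 6.64, MS4A1 6.54, VPREB1 4.07 and PAX5 3.73. The last 2 of these lay below the median of that array, 4.72. The relation of these markers to the MEF2C level was not tested.

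ERG, an ETS factor needed for stem cell maintenance in mice, divided the lines into 2 sets. It read 3.02 in ALL-SIL, 8.32 in CCRF-CEM, 3.16 in HPB-ALL, 9.23 in LOUCY, 9.46 in PEER and 3.55 in JURKAT, against 2.92 in CML-T1, 8.55 in MOLT-4, 8.62 in MOLT-14, 3.25 in MOLT-16 and 3.73 in SUP-T1. Thus 5 lines lay at 8.32 to 9.46 and 6 at 2.92 to 3.73, with no line between, and both sets held lines of both NKL groups. Another 2 probe sets were likewise higher in each of these 5 lines (5.22 to 7.34) than in the other 6 (2.76 to 3.67), while the last of its 4 probe sets read 3.82 in MOLT-4, below HPB-ALL at 4.0. The means were 6.64 ± 3.27 in the NKL-positive group and 5.41 ± 2.91 in the NKL-negative group (SD, n = 5 each), a difference of 1.22 (SE 1.71, 95% interval from −2.55 to 5.0, limma, adjusted p = 0.983). All 3 lines with poly-A controls near background were among the 6 low lines. Leaving out 1 line moved the ERG difference to 0.52 without PEER and to 2.13 without ALL-SIL. It was 0.54 with the 7 lines that had these controls and −0.25 when JURKAT was added to them, so its sign depended on the choice of lines.

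**Figure D3:**
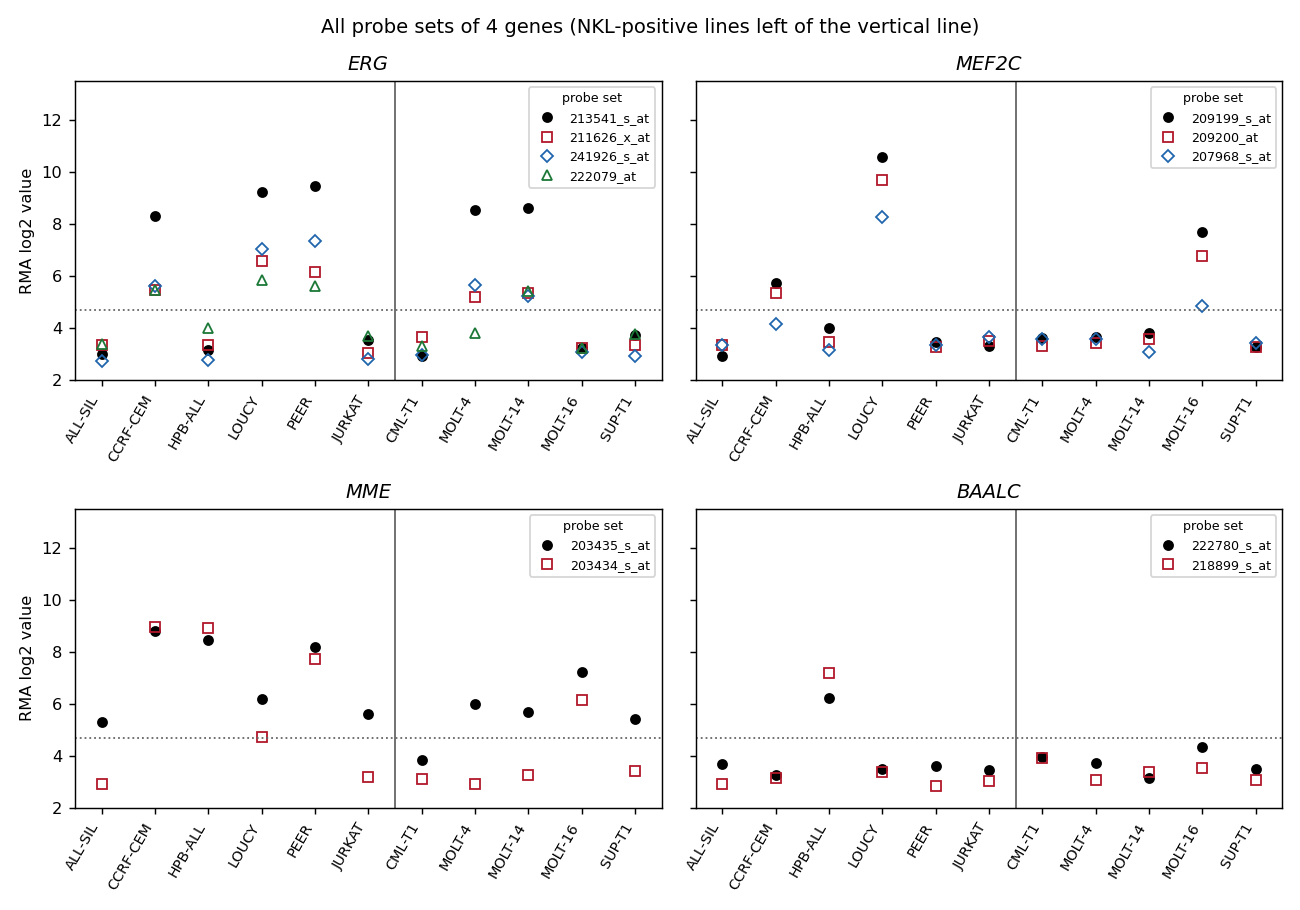
RMA log2 values (vertical axis) of every probe set of ERG, MEF2C, MME and BAALC in the 11 lines (horizontal axis), NKL-positive lines at the left; filled circles mark the probe set with the highest mean and the dotted line the median of the array medians. For ERG 5 lines separate from the others by 3 of 4 probe sets, all MEF2C probe sets peak in LOUCY, and both BAALC probe sets peak in HPB-ALL.

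BAALC encodes a membrane-associated protein of progenitors that is used as a prognostic marker in acute leukemia, and it was high in a single line. It read 6.24 in HPB-ALL, 3.26 to 3.71 in the other NKL-positive lines including JURKAT, and 3.17 to 4.36 in NKL-negative lines. The second probe set gave 7.17 in HPB-ALL and 2.83 to 3.91 in the other 10 lines. The means were 4.06 ± 1.23 in the NKL-positive group and 3.75 ± 0.45 in the NKL-negative group (SD, n = 5 each), a difference of 0.31 (SE 0.53, 95% interval from −0.85 to 1.48, limma, adjusted p = 0.984) that turned to −0.23 without HPB-ALL. The poly-A controls of HPB-ALL were near background, as in CML-T1 and MOLT-16, where BAALC read 3.96 and 4.36, so that the highest 3 lines for BAALC were those with poly-A controls near background. In the 7 lines with these controls the difference was 0.045.

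SPINK2, a serine protease inhibitor of the Kazal type that is transcribed in stem and progenitor cells, read 3.82 in ALL-SIL, 4.70 in CCRF-CEM, 3.77 in HPB-ALL, 8.93 in LOUCY, 7.26 in PEER and 8.56 in JURKAT, against 5.27 in CML-T1, 6.68 in MOLT-4, 5.78 in MOLT-14, 7.69 in MOLT-16 and 4.54 in SUP-T1. LOUCY and JURKAT were the highest lines, followed by MOLT-16 and PEER, and the lowest were ALL-SIL and HPB-ALL, which are NKL-positive. The means were 5.70 ± 2.30 in the NKL-positive group and 5.99 ± 1.23 in the NKL-negative group (SD, n = 5 each), a difference of −0.30 (SE 1.02, 95% interval from −2.56 to 1.97, limma, adjusted p = 0.994). With JURKAT as the NKL-positive line number 6 the difference was 0.18, and with only the lines that had poly-A controls it was 0.51, so no direction was established for SPINK2.

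LGALS1 encodes a secreted galectin that binds beta-galactosides on the cell surface and can trigger the death of T-cells. It had the widest span of the 10 genes, 9.49 log2 units between the lowest and the highest line. It read 6.14 in ALL-SIL, 13.16 in CCRF-CEM, 9.64 in HPB-ALL, 12.86 in LOUCY, 12.90 in PEER and 4.54 in JURKAT, against 8.12 in CML-T1, 3.82 in MOLT-4, 5.68 in MOLT-14, 12.19 in MOLT-16 and 3.67 in SUP-T1. CCRF-CEM, LOUCY, PEER and MOLT-16 were far above the rest, and MOLT-16 is NKL-negative while JURKAT, among the low lines, is NKL-positive. The means were 10.94 ± 3.05 in the NKL-positive group and 6.70 ± 3.56 in the NKL-negative group (SD, n = 5 each), a difference of 4.24 with an SE of 1.83 and a 95% interval from 0.20 to 8.29, or 18.9-fold (limma, adjusted p = 0.981). LGALS1 did not pass the test after adjustment over all probe sets. It also opens the published list for these lines, so that its difference is no independent evidence.

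The LGALS1 difference was 5.62 without MOLT-16, 3.49 without SUP-T1 and 3.18 with all 11 lines. In the 7 lines whose poly-A controls were present, the groups no longer overlapped, at 6.14 to 13.16 in 4 NKL-positive and 3.67 to 5.68 in 3 NKL-negative lines, a pattern found NKL-positive high in 3.01% of all genes. This choice of lines, made after the data were seen, leaves out MOLT-16 (12.19) and CML-T1 (8.12). They had the highest LGALS1 values of the NKL-negative group and were its only lines above ALL-SIL. The difference in these 7 lines was 6.88 (SE 1.72, limma, adjusted p = 0.473). When JURKAT was added the groups overlapped again and the difference was 5.53 (SE 2.17, limma, adjusted p = 0.710).

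**Figure D4:**
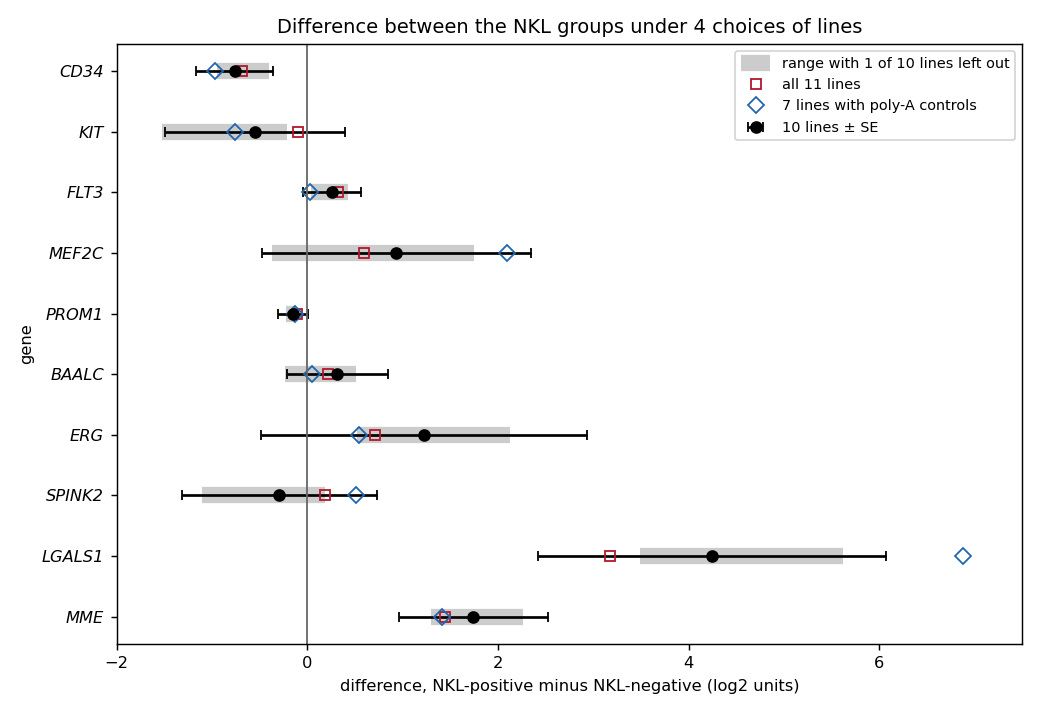
Difference of the log2 value, NKL-positive minus NKL-negative (horizontal axis), for each gene: black dots with bars give the 10 lines ± SE, grey bands the range when 1 line is left out, red squares all 11 lines and blue diamonds the 7 lines with poly-A controls. By dots, bands, squares and diamonds, LGALS1, MME, ERG and FLT3 stay above 0, and CD34, KIT and PROM1 stay below 0. The bands of MEF2C, BAALC and SPINK2 include 0.

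Read line by line, a gene was counted as high if it exceeded the median over the remaining 10 lines by 2 log2 units or more and also exceeded the median of that array. By this rule 7 of the 10 genes were high in at least 1 line, where 11.5% of all genes were, and there were 22 such gene and line pairs, 17 of them in NKL-positive lines (6 lines) and 5 in NKL-negative lines (5 lines). Over all genes there were 4094 pairs, 2214 in NKL-positive lines (1.87% of the possible pairs there) and 1880 in NKL-negative lines (1.90%). For the 10 genes, judged only among the 8 lines with poly-A controls, there were 11 pairs. No share over all genes is given for these 8 lines, so this count has no background to be set against. The smaller count follows in part from the rule. HPB-ALL and MOLT-16, which held high pairs, are not among these 8 lines. The 5 lines with high ERG all are, so the median that ERG is set against is itself high there. ERG is then no longer counted in these lines, although its values are the same. CCRF-CEM was high for MEF2C, ERG, LGALS1 and MME, LOUCY for MEF2C, ERG, SPINK2 and LGALS1, and PEER for KIT, ERG, LGALS1 and MME, which is 4 genes each. Over all genes 1.62% were high in CCRF-CEM, 2.46% in LOUCY and 1.56% in PEER. HPB-ALL was high for BAALC, LGALS1 and MME, MOLT-16 for MEF2C, SPINK2 and LGALS1, and JURKAT for KIT and SPINK2, with 2.57%, 2.31% and 1.99% of all genes high in HPB-ALL, MOLT-16 and JURKAT. MOLT-4 and MOLT-14 were high for ERG alone (0.986% and 1.46% of all genes), and ALL-SIL, CML-T1 and SUP-T1 for 0 of the 10 genes (0.986%, 3.34% and 1.41%). These counts are descriptions without a test, since the genes were chosen with results of these lines known.

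In LOUCY the MEF2C and SPINK2 values were the highest of the 11 lines, at 10.57 and 8.93, while CD34 at 4.03 and KIT at 3.38 were below the median of that array, 4.73. PEER had the highest KIT and ERG values of the 11 lines, 8.63 and 9.46.

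The profiles most like those of the widely varying genes were sought among 3228 genes with a range of at least 3 log2 units, by the root mean square distance between profiles after subtraction of each gene's median over the 11 lines. For MEF2C these were GCNT1, a glycosyltransferase of O-glycans, at a distance of 0.88 log2 units and LYN, a SRC-family kinase, at 0.94. LYN read 9.88 in LOUCY and 9.09 in MOLT-16 and 3.49 to 5.28 elsewhere, so that it was high in the lines that led for MEF2C. For KIT the nearest were HOXD13 (0.81) and KIF5A (0.90), and for MME NINJ2-AS1 (0.82) and EPCAM (0.94). For SPINK2 they were CRIM1, a transmembrane regulator of BMP ligands, at 0.90 and GSN, an actin-severing protein, at 0.93. CRIM1 read 8.12 in LOUCY, 7.39 in JURKAT and 7.73 in MOLT-16, which were also the lines with the highest SPINK2. The single high value of BAALC in HPB-ALL was matched by SCAND3 (0.31) and LOC101928933 (0.32). No gene came as close to ERG, with DDAH1 at 1.94 and CAPN2 at 1.96, or to LGALS1, with APOBEC3B and LAT2 both at 2.11.

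**Figure D5:**
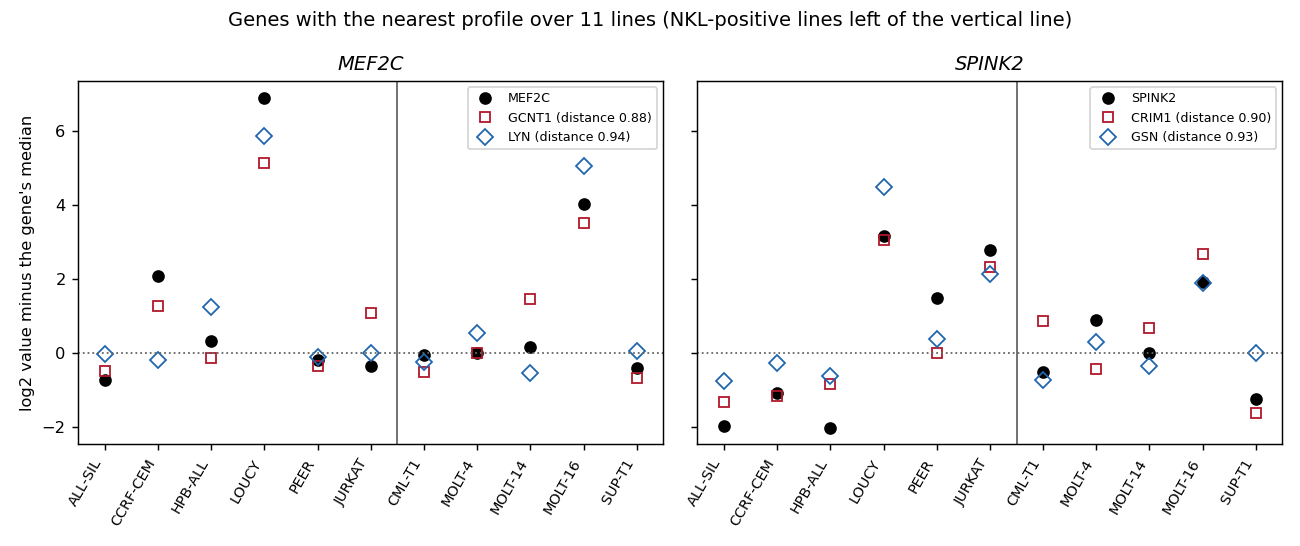
Log2 value minus the gene's own median over the 11 lines (vertical axis) for MEF2C and SPINK2 (black) and for the genes with the nearest profiles (red and blue), NKL-positive lines at the left; the distance is the root mean square difference in log2 units. LYN follows MEF2C in LOUCY and MOLT-16, and CRIM1 follows SPINK2 in LOUCY, JURKAT and MOLT-16.

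Of 140 genes related to these by function 127 were measured, and 0 passed the limma test between the groups in either direction, where 0.0152% of all genes did. Of these, 73 had the higher mean in NKL-positive lines and 54 had it in NKL-negative lines, and 7 reached an unadjusted p under 0.05. Among 17 stem cell transcription factors 8 were higher and 9 lower (median −0.17). HHEX, an NKL homeobox factor, averaged 7.92 ± 3.61 in the NKL-positive group and 4.33 ± 1.69 in the NKL-negative group (SD, n = 5 each), a difference of 3.60 (SE 1.56, limma, adjusted p = 0.981). HHEX is only one gene of the subclass by which the groups are defined, and its values overlapped between them. It read 10.61 in CCRF-CEM, 10.89 in LOUCY, 9.92 in PEER, 5.28 in HPB-ALL, 3.34 in JURKAT and 2.92 in ALL-SIL, against 6.65 in MOLT-14, 5.62 in MOLT-16, 3.32 in MOLT-4, 3.08 in CML-T1 and 2.97 in SUP-T1. MOLT-14 and MOLT-16 thus exceeded HPB-ALL, JURKAT and ALL-SIL. MEIS1 had a difference of −0.94 and CEBPA of −0.62. LYL1, a basic helix-loop-helix factor of stem cells, was highest in LOUCY (11.30), CCRF-CEM (9.66) and PEER (9.55), which are 3 of the 5 lines with high ERG. The remaining lines with high ERG, MOLT-14 and MOLT-4, read 8.69 and 7.32. Among the lines with low ERG, LYL1 read 8.59 in MOLT-16, 7.28 in ALL-SIL and 5.52 to 6.96 in the rest, so the match was partial. LMO2, the partner of LYL1, read 8.41 to 9.93 in CCRF-CEM, LOUCY, PEER, MOLT-14 and MOLT-16 and at most 6.44 in the other 6 lines.

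Of 21 further progenitor genes 12 were higher and 9 lower (median 0.03). IGLL1, a surrogate light chain of immature lymphoid cells, had the smallest p of all 127 genes. It read 7.81 in ALL-SIL, 11.81 in CCRF-CEM, 10.65 in HPB-ALL, 13.17 in LOUCY, 11.53 in PEER and 5.37 in JURKAT, against 4.84 in CML-T1, 5.90 in MOLT-4, 9.07 in MOLT-14, 7.82 in MOLT-16 and 3.55 in SUP-T1. The difference was 4.76 (SE 1.17, limma, adjusted p = 0.738), and ALL-SIL and JURKAT overlapped the NKL-negative lines. PROCR and TNFRSF4 had differences of 0.86 and 1.6.

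Downstream of the receptors, 25 genes of KIT and FLT3 signalling had 15 higher and 10 lower means (median 0.08). PTPN6, a phosphatase that restrains KIT, averaged 10.01 ± 0.70 in the NKL-positive group and 8.31 ± 1.24 in the NKL-negative group (SD, n = 5 each), a difference of 1.70 (SE 0.57, limma, adjusted p = 0.970), and the kinase AKT1 and the adaptor SHC1 had differences of 0.56 and 0.77. The other class III receptor kinases read −0.39 for PDGFRA, 0.33 for CSF1R and 0.47 for PDGFRB. Among 11 genes of the MEF2 family and its partners 8 were higher and 3 lower (median 0.27). Of these, HDAC5, a deacetylase that binds MEF2 factors, had a difference of 1.11 (SE 0.37, limma, adjusted p = 0.968), NFATC2 of 1.65 and HDAC4 of −0.88.

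Of 20 ETS factors other than ERG 14 were higher and 6 lower (median 0.15). ETS2 had a difference of 2.07 (SE 0.79, limma, adjusted p = 0.981), ELK1 of 0.48 and ELF2 of 0.46, and FLI1, the close relative of ERG, read 8.41 to 10.12 in all 11 lines without the division seen for ERG. Among 9 other galectins 3 were higher and 6 lower (median −0.17), with differences of 0.86 for LGALS3, −0.42 for LGALS13 and −0.21 for LGALS14. The 13 genes listed with the surface proteins gave 7 higher and 6 lower (median 0.07), with −1.21 for CD24, 0.42 for PROM2 and 0.38 for CRKL. The 8 SPINK and protease genes were split into 4 and 4 (median −0.01), with 0.45 for SPINK4, −0.28 for SPINK6 and −0.37 for ACR. The medians of the lists lay between −0.17 and 0.33, against −0.002 over all genes. As so few genes of the whole array passed, the count of 0 does not tell the lists from other genes.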

How the data were processed

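Biotin-labelled cRNA of each line was hybridized to an HG U133 Plus 2.0 array. The array data were generated at a pathology institute and provided to the authors. The authors processed the arrays by RMA (affy and limma are named in the submitters' processing notes), which corrects background, normalizes between arrays and summarizes each probe set. The deposited log2 values carry 2 decimals and ran from 2.24 to 14.71. They were used without further scaling. RMA gives the probe signals of all arrays a common distribution before they are summarized. A shift shared by most genes is thereby largely removed, and low values compress toward background. The deposited values still differed somewhat in their medians and quartiles between arrays. Precision is limited by the number of arrays.

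Tests covered 54613 probe sets, without the 62 controls. Of these, 41091 carry 1 gene symbol in the platform annotation, 1801 several and 11721 none. Linear models were fitted to 5 NKL-positive and 5 NKL-negative lines with limma 3.58.1 in R 4.3.3 (lmFit and eBayes, no covariate), with Benjamini-Hochberg adjustment over all probe sets and a threshold of 0.05. The limma p-values test the difference between the group means against the spread between lines. Intervals were not adjusted. Array controls were compared by exact permutation over 252 assignments (462 with JURKAT). The fit was tested on simulated data.

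Members, gene lists, marker lists and tests were chosen with earlier results of these data known. Named genes were the 10 members, the 3 genes with the smallest p in each list, and the 2 nearest profiles of each member with a range of at least 3 log2 units. LYL1, LMO2, KITLG, FLT3LG and FLI1 are list genes. CD3D, CD2, PTCRA, ITGAM, LYZ and the B-cell markers given for LOUCY and CML-T1 are cell type markers. These were singled out after their values were seen. Alternatives were other sets of lines, omission of each line, centring of arrays on their median, quantile normalization, a filter on low values, a floor at percentile 25 of each array, array weights, a variance trend with intensity, averages over a gene's probe sets, a term for the poly-A controls, and other gaps for the count of high lines. The sequences are from RefSeq (GRCh38.p14), in which 10 of 10 symbols were found; the overlap between start-site windows of 1 gene was not removed. Other promoters and protein sequences were not used here. Columns of the authors' own comparisons hold fold changes and were not used.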

Additional observations from a re-analysis of the deposited data

Results flagged for a closer look

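In 3 of 20 groups of lines examined, 1 line lay far outside the others, by a rule set to mark about 1 in 20 groups by chance. The 10 genes were chosen with results of these lines known. The count of 3 is therefore not read as an excess over chance. MEF2C read 10.57 in LOUCY, while the next NKL-positive line, CCRF-CEM, read 5.74. It read 7.69 in MOLT-16, while the next NKL-negative line, MOLT-14, read 3.83. BAALC read 6.24 in HPB-ALL, while the next NKL-positive line, ALL-SIL, read 3.71. In JURKAT, which the comparison of 10 lines leaves out, KIT read 7.44, above the highest NKL-negative value of 6.08 in SUP-T1. SPINK2 read 8.56 in JURKAT, above the highest NKL-negative value of 7.69 in MOLT-16.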

How the results depend on the processing

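No member and no gene of the related lists passed the limma threshold under any alternative. The number of probe sets called over the whole array was 5 and moved to 0 with all 11 lines, 3 with the floor, with only the 7 lines with poly-A controls and with the term for these controls, 1 with these 7 lines and JURKAT, and 10 without CML-T1 and MOLT-16. It ran from 3 to 13 when 1 line was left out (13 without LOUCY, 9 without MOLT-14, 3 without CML-T1, HPB-ALL or PEER). CD34, KIT, FLT3, PROM1, LGALS1 and MME kept the sign of their difference under every alternative that gave a value. Under the filter on low values FLT3, PROM1 and BAALC fell out and had no value. The MEF2C difference turned to −0.37 without LOUCY, that of BAALC to −0.23 without HPB-ALL, and that of ERG to −0.25 with the lines with poly-A controls and JURKAT and to −0.33 without CML-T1 and MOLT-16. The SPINK2 difference turned to 0.18 with all 11 lines, 0.99 with the lines with poly-A controls and JURKAT, 0.51 with the lines with poly-A controls, 0.029 without CML-T1 and MOLT-16, 0.13 without MOLT-16, 0.17 without ALL-SIL and 0.19 without HPB-ALL. With 1 line left out the differences ran from −0.37 to 1.75 for MEF2C, from 0.52 to 2.13 for ERG, from −1.53 to −0.21 for KIT and from −1.10 to 0.19 for SPINK2. The cause of these changes beyond the lines left out was not tested. The count of high gene and line pairs, 22, was 14 with a gap of 3 log2 units and 11 among only the lines with poly-A controls. The drop to 11 arose in part because the lines with high ERG form most of the lines kept, so that ERG is not counted in them. No share over all genes is given for these alternative counts. The restriction to lines with poly-A controls was chosen after the data were seen, as were the tests of array controls with 11 lines. The median of the class III kinases moved to −0.24 with the lines with poly-A controls and JURKAT and to −0.21 without CML-T1 and MOLT-16. No paired analysis was possible because no line belongs to both groups. Values near the lower quartile lie near background, where differences between lines are not detectable on these arrays.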
